A study of Mus musculus with 6 samples.

Results

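The genes described here were 10 transcription factors of amacrine cells, Tfap2a, Tfap2b, Tfap2c, Prdm13, Ebf3, Barhl2, Neurod2, Neurod6, Gbx2 and Meis2, chosen by name from the 32371 genes of the count table. All 10 were found by symbol. They were followed in 6 RNA-Seq libraries from adult C57BL/6J mice, 3 from mice injected intravitreally with AAV2-GFP as the control and 3 from mice given AAV2-Ezh2-Y726D, which encodes a catalytically dead form of the histone methyltransferase Ezh2. All mice carried an AAV2 vector and had an optic nerve crush (ONC) 2 weeks after the injection, and cells were collected 3 days after the ONC. Live cells positive for CD90.2, the product of Thy1, were sorted from dissociated retinas to enrich retinal ganglion cells (RGCs). AAV2 is not restricted to RGCs, and the sources used here do not state how many mice went into a library, so that P values measure only the spread between these libraries.

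Amacrine cells are the inhibitory interneurons of the inner retina, most of which release GABA or glycine, and some of which are displaced into the ganglion cell layer beside the RGCs. Their fate and subtypes are set during development by a cascade of transcription factors, several of which stay on in the mature cell and serve as its markers. Many developmental transcription factor genes are known targets of PRC2, the complex in which Ezh2 places the repressive mark H3K27me3.

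Among the members, 8 had at least 10 counts in every library, and 7 of these were higher after Ezh2-Y726D overexpression, by 1.28-fold (Meis2) to 1.78-fold (Prdm13). Neurod2 was the exception. Gbx2 and Neurod6 were at or near 0 counts in the GFP libraries and had 66 and 22 counts over the 3 Ezh2-Y726D libraries. A change was called where the adjusted P of the quasi-likelihood test in edgeR, corrected over the 18138 genes that could be tested, was under 0.05, and a differentially expressed gene (DEG) where the fold change was also over 1.5. Among these 18138 genes, 13.9% were higher and 13.6% lower by the first criterion, and 2.52% were higher and 5.50% lower DEGs. The median log2 fold change of the 8 members was 0.52, beside 0.00182 over all genes tested.

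**Figure D1:**
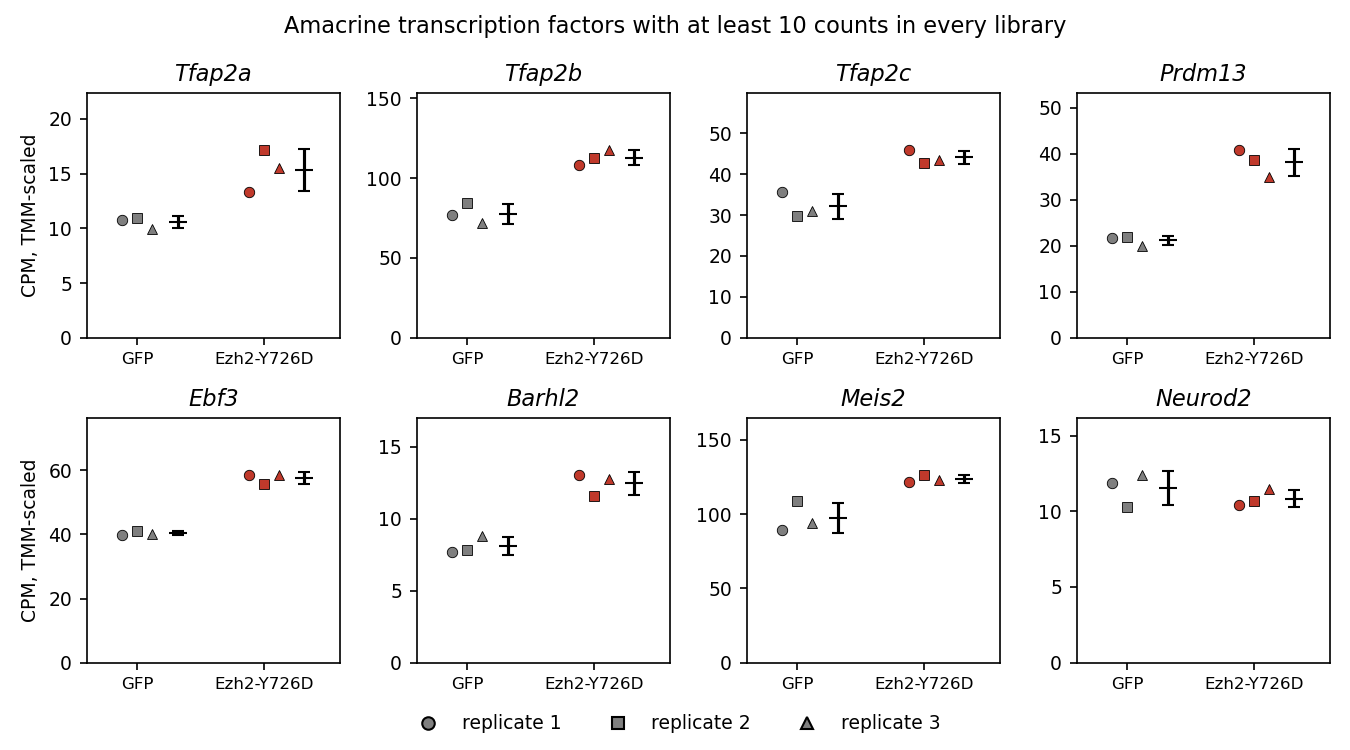
TMM-scaled CPM of the 8 members with at least 10 counts in every library, by library (circle, square and triangle for replicates 1, 2 and 3), with the mean ± SD of the 3 libraries of each group as a black bar beside the points. In every panel but that of Neurod2, all Ezh2-Y726D libraries lie above all GFP libraries.

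The start regions of the genes are shown first, to set the members that changed most beside the one that did not follow them. For 9 members, RefSeq on GRCm38.p6 gave 10 promoter windows of 300 bases, from 250 before to 50 after the start of transcription, with a pair of starts for Tfap2a. The set of promoter windows used here held none for Tfap2c. The windows are printed for Prdm13 and Barhl2, the DEGs among the 8 members above, for Gbx2, which was nearly without counts in GFP, and for Neurod2, 5′ to 3′ on the strand of the gene, with each CpG in capitals. That of Prdm13 is chr4:21685914-21686213, minus strand, that of Barhl2 chr5:106458117-106458416, minus strand, that of Gbx2 chr1:89931127-89931426, minus strand, and that of Neurod2 chr11:98329596-98329895, minus strand.
Prdm13: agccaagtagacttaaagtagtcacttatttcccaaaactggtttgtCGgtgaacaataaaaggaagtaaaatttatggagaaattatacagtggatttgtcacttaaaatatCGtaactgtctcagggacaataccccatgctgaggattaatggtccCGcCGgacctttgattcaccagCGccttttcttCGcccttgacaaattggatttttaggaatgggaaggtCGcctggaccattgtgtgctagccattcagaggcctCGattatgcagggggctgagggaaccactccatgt
Barhl2: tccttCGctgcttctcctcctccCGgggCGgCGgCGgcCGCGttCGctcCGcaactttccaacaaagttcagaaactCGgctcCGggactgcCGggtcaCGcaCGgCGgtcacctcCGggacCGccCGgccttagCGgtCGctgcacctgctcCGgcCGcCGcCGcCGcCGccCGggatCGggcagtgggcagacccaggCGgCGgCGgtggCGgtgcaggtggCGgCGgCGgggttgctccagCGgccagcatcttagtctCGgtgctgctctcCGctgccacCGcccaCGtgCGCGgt
Gbx2: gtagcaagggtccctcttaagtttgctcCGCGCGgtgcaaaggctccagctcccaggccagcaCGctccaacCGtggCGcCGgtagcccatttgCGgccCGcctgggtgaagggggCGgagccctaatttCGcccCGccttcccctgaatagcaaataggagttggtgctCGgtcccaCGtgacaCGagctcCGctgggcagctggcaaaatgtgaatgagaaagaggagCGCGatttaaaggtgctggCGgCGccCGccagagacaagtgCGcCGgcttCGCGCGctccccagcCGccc
Neurod2: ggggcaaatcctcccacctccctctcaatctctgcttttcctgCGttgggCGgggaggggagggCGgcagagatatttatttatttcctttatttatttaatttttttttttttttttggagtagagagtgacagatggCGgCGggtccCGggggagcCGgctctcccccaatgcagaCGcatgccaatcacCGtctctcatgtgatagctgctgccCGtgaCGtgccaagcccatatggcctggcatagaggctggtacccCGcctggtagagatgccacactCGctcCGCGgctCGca

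The Prdm13 window held 8 CpGs, that of Barhl2 42, that of Gbx2 27 and that of Neurod2 16, relative to a median of 7 over 32851 windows of this length. Over all 10 windows of the members, the CpG count ran from 3 for Neurod6 to 46 for Ebf3, and 9 windows were above the median of all promoters. The member with the largest change among those with counts in every library, Prdm13, thus had a window close to the median of all promoters, whereas that of Barhl2 had more CpGs than 97.0% of them. Letters of 4 motifs were searched on both strands, as a description of sequence and not of binding. GCCNNNGGC, the core of the AP-2 motif, was in 1 of the 10 windows (that of Ebf3) and in 16.6% of all windows. CAGATG, an E-box read by NeuroD factors, was in 1 window (that of Neurod2) and in 17.2% of all. TGACAG, the Meis motif, was in 2 windows (those of Ebf3 and Neurod2) and in 19.2% of all. CCCNNGGG, the core of the EBF motif, was in 3 windows (those of Tfap2a, Ebf3 and Neurod2) and in 13.7% of all. In the Neurod2 window the Meis letters start at base 130, counted from the 5′ end of the window, and overlap the E-box, which starts at base 133. The windows of Tfap2b, Prdm13, Barhl2, Gbx2, Neurod6 and Meis2 held none of these letters.

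The AP-2 factors Tfap2a and Tfap2b act downstream of Ptf1a in the differentiation of amacrine and horizontal cells, and Tfap2c is a further AP-2 factor of amacrine cells. Tfap2b (ENSMUSG00000025927, chromosome 1, 19208914 to 19238576) was at 76.9, 84.4 and 71.7 CPM (read counts relative to the library total after scaling by TMM factors) in the GFP libraries, whereas it was at 108, 113 and 118 CPM with Ezh2-Y726D. The groups did not overlap, which held in this direction for 19.7% of all genes tested and in the other for 18.9%. Its log2 fold change was 0.54 (standard error (SE) 0.050, Benjamini-Hochberg adjusted P = 1.58e-09 by edgeR). Tfap2c (ENSMUSG00000028640, chromosome 2, 172549593 to 172558622) was at 35.6, 29.8 and 31.0 CPM in GFP and at 45.9, 42.8 and 43.4 CPM after Ezh2-Y726D, a log2 fold change of 0.41 (SE 0.065, edgeR adjusted P = 1.24e-05). The spread of Tfap2c was wider in GFP, where replicate 1 was the highest, and without that library its log2 fold change was 0.54.

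Tfap2a (ENSMUSG00000021359, chromosome 13, 40715302 to 40738376) was at 10.8, 10.9 and 9.94 CPM in GFP and at 13.4, 17.2 and 15.6 CPM after Ezh2-Y726D. All Ezh2-Y726D libraries were again above all GFP libraries, and replicate 1 of Ezh2-Y726D was the nearest to them. The log2 fold change was 0.52 (SE 0.10, edgeR adjusted P = 0.000185). Antisense genes cover 14.6% of its exonic bases, and the sources used here do not state whether reads were counted by strand. The most abundant of these antisense genes, Gm26688, had 13, 9 and 5 counts in GFP and 46, 25 and 34 counts after Ezh2-Y726D, against 60 to 460 counts of Tfap2a per library. It moved in the same direction as Tfap2a (log2 fold change 1.05, adjusted P = 0.0215 from edgeR), and its part in the Tfap2a result was not tested.

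Prdm13, a zinc finger factor that acts downstream of Ptf1a and favors the amacrine fate, rose most among the members with counts in every library. Prdm13 (ENSMUSG00000040478, chromosome 4, 21677480 to 21685963) was at 21.7, 21.9 and 20.0 CPM in GFP and at 40.9, 38.7 and 35.0 CPM after Ezh2-Y726D. The lowest Ezh2-Y726D library thus lay well above the highest GFP library. Its log2 fold change of 0.83 (SE 0.071, edgeR adjusted P = 3.19e-10) made it a DEG and was higher than that of 98.5% of all genes tested. Ebf3, a helix-loop-helix factor of the early B cell factor family that is made in several types of inner retinal neuron, was the most even within GFP. Ebf3 (ENSMUSG00000010476, chromosome 7, 137193673 to 137314445) was at 39.8, 41.0 and 40.3 CPM in GFP and at 58.6, 55.6 and 58.6 CPM after Ezh2-Y726D, with a log2 fold change of 0.52 (SE 0.055, edgeR adjusted P = 1.59e-08). The only antisense gene over its exons, Gm45278, had 1 count in all libraries together.

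Barhl2 and Meis2 are homeodomain factors, the former of which acts in amacrine subtype specification and in RGC survival, while the latter marks GABAergic amacrine cells. Barhl2 (ENSMUSG00000034384, chromosome 5, 106452523 to 106458166) was at 7.67, 7.86 and 8.78 CPM in GFP and at 13.1, 11.5 and 12.8 CPM after Ezh2-Y726D. It was a DEG with a log2 fold change of 0.66 (SE 0.10, edgeR adjusted P = 9.24e-06). GFP replicates 2 and 3 held only 61 and 53 counts of Barhl2, so that its interval was wide (95% confidence interval 0.45 to 0.87 on the log2 scale). Meis2 (ENSMUSG00000027210, chromosome 2, 115863064 to 116065839) was the member with the most counts and had the smallest rise. It was at 89.6, 109 and 94.2 CPM in GFP and at 121, 127 and 123 CPM after Ezh2-Y726D, a log2 fold change of 0.36 (SE 0.052, edgeR adjusted P = 2.78e-06). With 1 library left out, the value for Meis2 was between 0.27 and 0.44.

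Neurod2, a basic helix-loop-helix factor found in AII amacrine cells and in some RGCs, did not follow the other members. Neurod2 (ENSMUSG00000038255, chromosome 11, 98325415 to 98329648) was at 11.9, 10.3 and 12.4 CPM in GFP and at 10.4, 10.7 and 11.5 CPM after Ezh2-Y726D. The groups overlapped, and the log2 fold change was -0.10 (SE 0.097, edgeR adjusted P = 0.529). The 95% confidence interval of this difference was -0.29 to 0.10. It lay below the values of all 7 members that rose, but the difference between genes was not tested. The interval still allows a small change of either sign.

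Gbx2 and Neurod6 are factors of small amacrine subsets. Gbx2 marks a few amacrine types, and Neurod6 marks amacrine cells that use neither GABA nor glycine. For these members raw counts are given, since their levels in GFP rest on 3 counts or fewer. Gbx2 (ENSMUSG00000034486, chromosome 1, 89927956 to 89931179) had 3, 0 and 0 counts in the GFP libraries and 28, 18 and 20 counts in the Ezh2-Y726D libraries. Scaled to depth, the Ezh2-Y726D libraries were at 1.05, 0.881 and 0.677 CPM. A count of 0 in GFP replicates 2 and 3, the shallowest libraries, allows up to 0.386 and 0.497 CPM (a limit of 3 counts), which is below each Ezh2-Y726D library. Over pooled counts Gbx2 was 12.2-fold higher after Ezh2-Y726D (95% exact interval 3.98 to 60.5, which covers counting error only). It passed the filter on low counts only through the Ezh2-Y726D libraries, so that its adjusted P of 3.44e-05 from edgeR is not counted with the 7 members above.

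Exons of D130058E05Rik, a noncoding gene on the other strand, cover 43.5% of the exonic bases of Gbx2. D130058E05Rik had 4, 1 and 0 counts in GFP and 6, 2 and 0 counts after Ezh2-Y726D, which is fewer than those of Gbx2 in every Ezh2-Y726D library. Neurod6 (ENSMUSG00000037984, chromosome 6, 55677822 to 55681263) had 0, 1 and 0 counts in GFP and 12, 4 and 6 counts after Ezh2-Y726D. It did not pass the filter and was not among the genes tested. GFP replicate 1 has the greatest depth of the controls, and its count of 0 allows up to 0.105 CPM, relative to 0.450, 0.196 and 0.203 CPM in the Ezh2-Y726D libraries. GFP replicate 3 was too shallow to separate Neurod6 from these levels, as its count of 0 allows up to 0.497 CPM. The single count in GFP replicate 2 corresponds to 0.129 CPM. Over pooled counts the ratio was 12.2 with an exact 95% interval of 1.97 to 502, so that its size is poorly known.

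**Figure D2:**
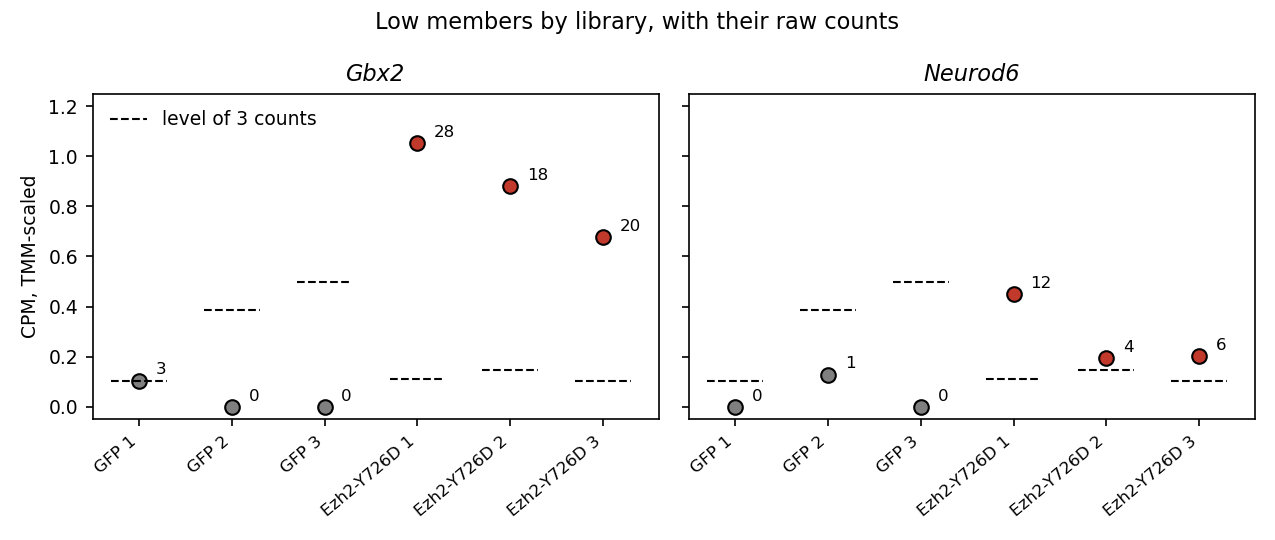
TMM-scaled CPM of Gbx2 and Neurod6 in each library, with the raw count beside each point and a dashed line at the level of 3 counts in that library. The Gbx2 points of Ezh2-Y726D (28, 18 and 20 counts) lie above the dashed lines of all libraries, whereas those of Neurod6 (12, 4 and 6 counts) lie above the line of GFP replicate 1 and below that of GFP replicate 3.

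The levels of the members were also compared with each other, as CPM per kb of exonic length. In GFP, Tfap2b had the highest level at 12.3 ± 1.00 CPM per kb (SD, n = 3 libraries), followed by Tfap2c at 8.73 ± 0.842 and Meis2 at 8.11 ± 0.838, which did not differ beyond their spread. Prdm13 at 4.96 ± 0.239 and Ebf3 at 4.37 ± 0.0619 CPM per kb came next. Neurod2 and Barhl2 had overlapping levels of 3.67 ± 0.350 and 3.50 ± 0.256 CPM per kb, and Tfap2a was at 2.15 ± 0.111. After Ezh2-Y726D, the order of the 5 highest was the same, with Tfap2b at 17.8 ± 0.731 CPM per kb. Barhl2, at 5.38 ± 0.346, was then above Neurod2 at 3.45 ± 0.178 without overlap, and Neurod2 overlapped with Tfap2a at 3.13 ± 0.391 CPM per kb. Gbx2 reached 0.399 ± 0.0860 CPM per kb, which remained below every other member except Neurod6.

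A list of 24 further transcription factors of amacrine development and subtypes moved in both directions. Of these, 23 were found and 20 were tested, and Ptf1a was not analysed here. At an adjusted P under 0.05 from edgeR, 9 were higher, 4 were lower and 7 did not pass, with a median log2 fold change of 0.10. None of the 20 reached the fold change of a DEG. The 9 that rose were Nr4a2, Zfhx3, Bhlhe22, Six3, Pax6, Lhx9, Ebf1, Meis1 and Nfix. Pax6, the eye field factor that stays on in amacrine cells and RGCs, went from 355 ± 10.9 to 477 ± 9.23 CPM (SD, n = 3 per group), with a log2 fold change of 0.43 (SE 0.040, edgeR adjusted P = 1.49e-09). Bhlhe22, which acts in amacrine and bipolar subtypes, had a log2 fold change of 0.48, and Nr4a2 and Zfhx3 each had one of 0.50. Those that fell were Isl1, Neurod4, Neurod1 and Prox1, with log2 fold changes of -0.58, -0.43, -0.19 and -0.15. As background, several factors of both directions are also made outside amacrine cells, such as Isl1 in ON bipolar cells and RGCs and Neurod1 in photoreceptors among those that fell, and Pax6 in RGCs and Bhlhe22 in bipolar cells among those that rose. Foxn4, a factor of retinal progenitors, had 1 count in all libraries together.

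**Figure D3:**
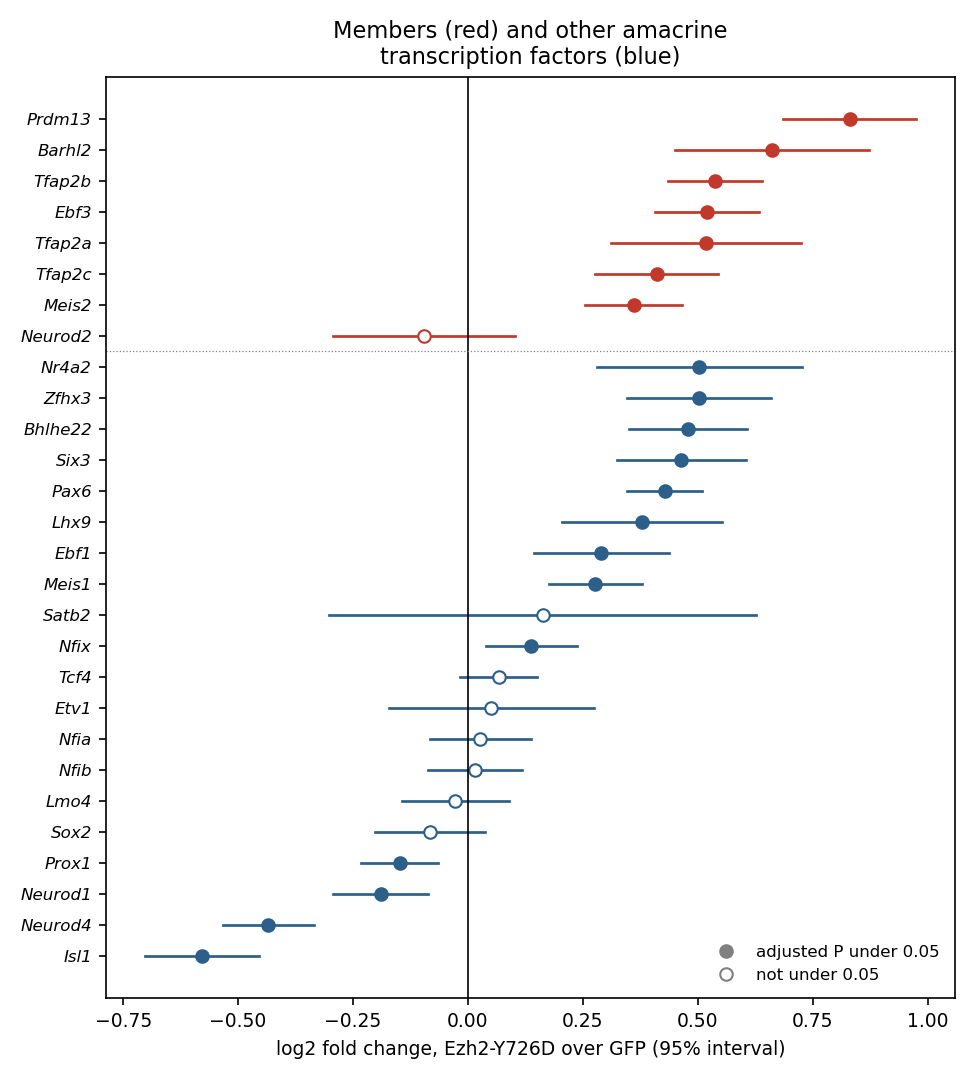
Log2 fold change of Ezh2-Y726D over GFP with its 95% confidence interval for the 8 members with at least 10 counts in every library (red) and the 20 tested genes of the list of other amacrine transcription factors (blue). Filled points had an adjusted P under 0.05 from edgeR. The members run from -0.10 to 0.83 and the other factors from -0.58 to 0.50.

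Paralogs of the members moved in both directions. Of 6 listed, Tfap2d, Ebf4 and Meis3 rose, with log2 fold changes of 0.74, 0.37 and 0.28, and Tfap2e fell with one of -0.62 (adjusted P = 0.00256 from edgeR). Prdm8, whose exons overlap other genes over 29.1% of their bases, had 27.3 ± 2.26 CPM in GFP against 27.1 ± 0.205 CPM with Ezh2-Y726D (SD, n = 3 libraries), and Gbx1 had 2 counts in all libraries. The AP-2 family thus had members that rose (Tfap2a, Tfap2b, Tfap2c and Tfap2d) and one that fell. Tfap2d and Tfap2e were both low. Tfap2d had 2.64 ± 0.275 CPM in GFP against 4.33 ± 0.0199 CPM with Ezh2-Y726D (SD, n = 3 libraries), without overlap. Tfap2e had 5.36 ± 1.19 CPM in GFP against 3.77 ± 0.396 CPM with Ezh2-Y726D, and its groups overlapped. The paralogs have little sequence in common over stretches of 50 bases. Of all 50-base words in the transcripts of Tfap2b and Tfap2c, 0.0316% and 0% occur in transcripts of any other gene, on either strand. The share was 10.2% for Tfap2a and 42.2% for Gbx2, the latter all shared with its antisense gene. Of the 493 shared words of Tfap2a, 283, 171 and 27 occur in its antisense genes Gm26688, Gm47061 and Gm47067.

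The members were then set beside genes that mark amacrine cells by function. Of 20 such genes, 18 were tested, 13 were higher and 1 was lower, and the median log2 fold change was 0.57. Gad1 and Gad2, which make GABA, and Slc32a1, which loads GABA and glycine into vesicles, had log2 fold changes of 0.69, 0.61 and 0.70. Slc6a9, the glycine transporter of glycinergic amacrine cells, had one of 0.74. Vip, the neuropeptide of a GABAergic amacrine type, had the largest change, from 2.05 ± 0.457 to 12.5 ± 0.989 CPM (SD, n = 3 per group), and Penk was the gene that fell (-0.59). Chat and Slc18a3, the defining genes of starburst amacrine cells, stayed under 1 CPM in all libraries. In these bulk libraries, a change in the share of cells of a type and a change in RNA per cell cannot be told apart.

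Lists for other retinal cell types moved less or in the other direction. Of 12 RGC genes 2 were higher and none was lower, with summed levels of 488 to 501 CPM in GFP and 481 to 520 CPM after Ezh2-Y726D. Of 9 rod genes 3 were higher and none was lower, and of 8 Müller glia genes 3 were higher and 2 lower. Of 10 bipolar genes 8 were lower and 2 higher, and their sum went from 1306 to 1346 CPM down to 1102 to 1114 CPM. All 7 cone genes were lower (441 to 461 against 282 to 297 CPM), as were 6 of 8 microglia genes (751 to 841 against 487 to 572 CPM), while 1 microglia gene, P2ry12, was higher with a log2 fold change of 0.33. The 20 amacrine genes summed to 1500 to 1656 CPM in GFP and 2318 to 2420 CPM after Ezh2-Y726D. Of the horizontal cell genes, which matter here because Tfap2a and Tfap2b are also made in these cells, 6 of 7 were tested, none was higher and 1 was lower. Their defining factors Lhx1 and Onecut1 were at 0.169 to 0.515 and 0.406 to 0.832 CPM in all libraries, and 52.8% of the exonic bases of Onecut1 overlap other genes. Among the genes of these lists that passed the test, the rod list left out, the log2 fold changes farthest from 0 were 0.41 for Pou4f1 (RGCs), -0.64 for Apoe (Müller glia), -0.74 for Vsx1 (bipolar cells), -0.78 for Gngt2 (cones), -1.04 for Aif1 (microglia) and -0.44 for Tpm3 (horizontal cells). The RGC label was met only in part. Rbpms and Thy1 were present at 12.4 to 16.9 and 99.5 to 122 CPM. As sums in GFP and after Ezh2-Y726D, the 12 RGC genes had 488 to 501 and 481 to 520 CPM. The 9 rod genes had 5980 to 6190 and 6525 to 6778 CPM, and the 8 Müller glia genes 11665 to 12246 and 10975 to 11376 CPM. These sums are over different numbers of genes and are not scaled to length, so that they give no share of cells. The part of these shifts between cell types in the results for the members was not tested.

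**Figure D4:**
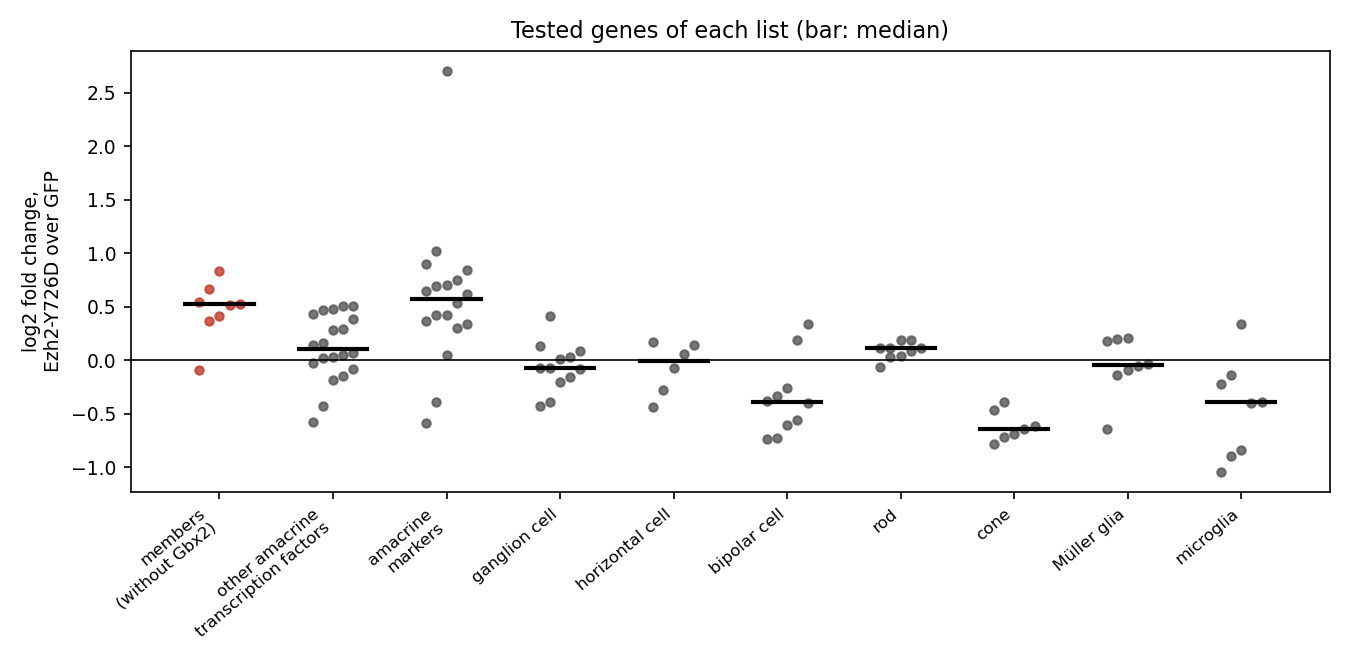
Log2 fold change of Ezh2-Y726D over GFP for each tested gene of the members (red, without Gbx2) and of 9 comparison lists (gray), with the median of each list as a black bar. The medians of the members and of the amacrine markers are 0.52 and 0.57, that of the RGC list is -0.07, and those of the bipolar and cone lists are -0.39 and -0.64.

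Relative to the summed amacrine markers, 5 members had overlapping groups. The ratio of member to marker sum, in CPM per 100 CPM, was 4.88 ± 0.304 in GFP and 4.75 ± 0.302 after Ezh2-Y726D for Tfap2b (SD, n = 3 per group). They also overlapped for Tfap2a, Tfap2c, Ebf3 and Barhl2, whose mean ratios after Ezh2-Y726D were 0.974, 0.917, 0.953 and 1.02 times those in GFP. Of the 8 members with counts in every library, Prdm13 was the exception in the upward direction. Its ratio was 1.31, 1.36 and 1.34 in GFP and 1.69, 1.61 and 1.51 after Ezh2-Y726D, or 1.20 times as high. Neurod2 and Meis2 had ratios 0.627 and 0.846 times those in GFP, with no overlap between the groups. These lower ratios are not a fall in CPM, since Neurod2 did not pass as changed and Meis2 rose less than the marker sum. The marker sum itself rose, so that a gene with unchanged CPM has a lower ratio. The share of all genes without overlap in this ratio was not computed, and the shares given for CPM do not apply to it. How unusual an overlap or its absence is for a member is thus not known.

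With 3 libraries against 3, an exact permutation test of such a ratio cannot give a 2-sided P under 0.1, so that no ratio could pass a threshold of 0.05 by this test, and no other test of the ratios was run. Gad1 made up 19.7% of the marker sum. With Pax6 alone as the reference, Prdm13 was 1.34 times and Neurod2 0.699 times as high as in GFP, both without overlap, whereas Meis2 at 0.945 times overlapped. Pax6 itself rose (log2 fold change 0.43), so that a gene with unchanged CPM has a lower ratio here too. No ratio is given for Gbx2 and Neurod6, whose GFP levels rest on 3 counts and 1 count.

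**Figure D5:**
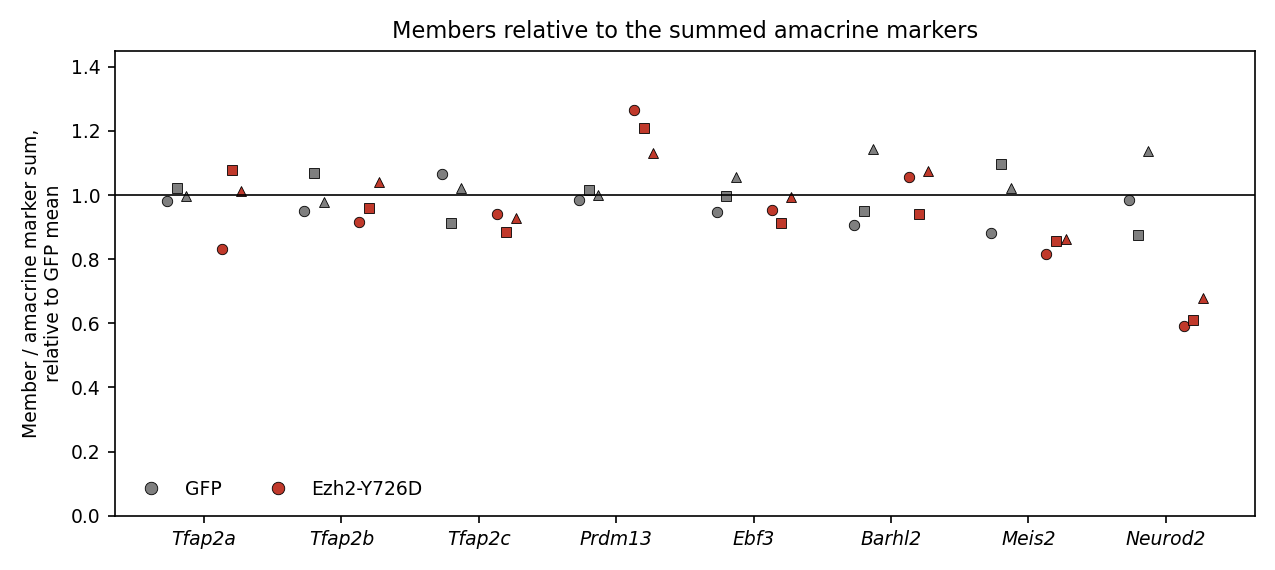
Ratio of each member's CPM to the summed CPM of the 20 amacrine markers, divided by the mean of this ratio in GFP, for each library (gray for GFP, red for Ezh2-Y726D; circle, square and triangle for replicates 1, 2 and 3). Prdm13 lies above and Meis2 and Neurod2 lie below GFP without overlap, and the other 5 members overlap.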

How the data were processed

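RNA-Seq counts of 6 libraries, 3 of AAV2-GFP and 3 of AAV2-Ezh2-Y726D, were analysed. The authors deposited raw counts of reads per gene without normalization, made with a stranded total RNA kit per the labels. The submitters' processing notes name STAR 2.7.0d and GRCm38, and the counting tool, annotation, strand setting and read filters are not given in the sources used here. Symbols were found for 32325 of 32371 identifiers, and coordinates and exonic lengths are those of GENCODE vM21 on GRCm38, which may not be the annotation of the authors.

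Counts were scaled by TMM and compared with edgeR 4.0.16 (quasi-likelihood test, R 4.3.3) after filterByExpr (minimum 10 counts, total 15), with Benjamini-Hochberg adjustment over 18138 genes. Standard errors were derived from the log2 fold change and the F statistic. Total counts were 9333244 to 23782520 per library, of which an rRNA gene, CT010467.1, took 2.55% to 52.2%, most in GFP replicates 2 and 3, so that low genes are least precise there. Intervals from pooled counts are exact conditional binomial and cover counting error only.

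The named genes are the 10 members, Ezh2 and the genes of the comparison lists, with values for those with the largest changes and the defining markers. Some listed genes are not reported here by name. Antisense genes over members were named after their values were seen. The members and lists were chosen with earlier results of these data known. Ezh2 itself rose from 24.3 ± 1.88 CPM with GFP to 65.2 ± 0.212 CPM with Ezh2-Y726D (SD, n = 3 each), where vector and endogenous transcripts are not separated. The procedure was tested on simulated data with known changes. Alternatives were RLE size factors, library totals with and without CT010467.1, DESeq2 1.42.0, other filters, a replicate block, thinning to 4460732 counts, a fold change over 2 and leaving out each library.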

Additional observations from a re-analysis of the deposited data

How the results depend on the processing

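The 7 members that rose kept an adjusted P under 0.05 from edgeR or DESeq2 in all 13 alternatives other than library totals, with log2 fold changes of 0.77 to 0.89 for Prdm13, 0.27 to 0.44 for Meis2 and, as the widest range, 0.44 to 0.72 for Tfap2a, and Neurod2 passed in none (-0.14 to -0.02). The fitted log2 fold change of Gbx2 ran from 3.24 to 6.98 (the last without GFP replicate 1, its only control library with counts), which is no sign of stability, since it could be tested only through its counts with Ezh2-Y726D. DESeq2 gave it no adjusted P, and at 10 counts in every library or equal depth it was filtered out. Neurod6 could be tested only without a filter (adjusted P = 0.017 from edgeR).

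Library totals, which include the rRNA gene, moved the median of all genes to 0.49 and left 46 higher and 19 lower DEGs. With them 1 member, Gbx2, was higher and a DEG, the other 7 had log2 fold changes of 0.87 to 1.34 without passing, and Neurod2 turned to 0.39, which is below that median. Of the other amacrine transcription factors 0 were higher and 0 lower (median 0.57), and of the amacrine markers 2 were higher and 0 lower (median 1.03). Library totals without the rRNA gene gave a median of 0.049 for the other factors. The marker median was 0.48 with 10 counts in every library and 0.64 without a filter, and at equal depth 0 markers were lower. Higher DEGs numbered 282 with DESeq2 and 268 with 10 counts in every library. A fold change over 2 left 134 higher and 309 lower DEGs, 1 of them a member (Gbx2). With 1 library left out, the median ran from 0.029 to 0.098 for the other factors and from 0.55 to 0.65 for the markers.

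The libraries were not treated as paired by replicate number, and whether the numbers pair them is open. Deviations of same-numbered libraries from their group means correlated at 0.0723, 0.0342 and 0.0238 across genes, and no source says what a number shares. Every same-numbered pair was the best match of its GFP library, as a hint from the data only. With the replicate block the 7 members stayed higher, DEGs numbered 1403 against 1455 without it, and Prdm13 had a log2 fold change of 0.87. Depth limits Neurod6, whose level after Ezh2-Y726D is within what 0 counts allow in GFP replicate 3.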
